A study of Rattus norvegicus with 6 samples.

Results

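The genes described here are 7 genes of de novo lipogenesis, the making of fatty acids from small carbon precursors: Slc25a1, Acly, Acss2, Acaca, Acacb, Me1 and the lipogenic regulator Thrsp. They were chosen by name with earlier results of these data known, so the shares of all genes set beside them are description only. Each was measured by 1 array feature whose platform annotation gave that symbol alone, so 7 of 7 were found among 18166 genes. RNA came from adipose-derived stem cells (ADSCs), the stromal precursors of adipocytes, taken from the inguinal fat of female Wistar rats at 2 weeks of age. Control cultures (3 arrays) grew in alpha-modified Eagle medium with 10% fetal bovine serum. Induced cultures (3 arrays) were kept for 7 days in that medium with 20% serum, 0.5 mM 3-isobutyl-1-methylxanthine (IBMX, a phosphodiesterase inhibitor that raises cAMP), 1 µM dexamethasone (a synthetic glucocorticoid) and 5 µg/ml insulin. Serum and inducers therefore changed together and their effects cannot be told apart. The labels give neither the culture time of control cells nor whether cultures came from separate animals, so p-values measure the spread between these cultures, which may be technical.

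In lipogenesis, citrate leaves the mitochondrion through the carrier encoded by Slc25a1, and ATP-citrate lyase (Acly) splits it in the cytosol into acetyl-CoA and oxaloacetate. Acyl-CoA synthetase short-chain family member 2 (Acss2) makes acetyl-CoA from acetate instead. Acetyl-CoA carboxylase 1 (Acaca) is the cytosolic biotin enzyme that turns acetyl-CoA into malonyl-CoA, the building block of fatty acids. Acetyl-CoA carboxylase 2 (Acacb) sits at the mitochondrial outer membrane, where its malonyl-CoA restrains entry of fatty acids into oxidation. Malic enzyme 1 (Me1) yields the NADPH that fatty acid synthesis consumes. Thrsp, also called Spot 14, is a small protein without known enzyme activity that responds to thyroid hormone and carbohydrate and is abundant in liver, fat and lactating mammary gland.

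Promoter sequence was read for 6 of the 7 genes from the RefSeq promoter table (build GRCr8), as the 250 bases before the annotated start, and Acaca had no entry there. The promoters of Thrsp, Acly and Acacb are printed because these genes span the responses below: Thrsp had the largest change, Acly moved with most of the pathway, and Acacb was the gene whose groups overlapped. They lie at chr1:161138965-161139214 (minus strand), chr10:85963632-85963881 (minus strand) and chr12:48138215-48138464 (minus strand), and each is given 5′ to 3′ on the strand of its gene with matches to the searched motifs in capitals.
Thrsp: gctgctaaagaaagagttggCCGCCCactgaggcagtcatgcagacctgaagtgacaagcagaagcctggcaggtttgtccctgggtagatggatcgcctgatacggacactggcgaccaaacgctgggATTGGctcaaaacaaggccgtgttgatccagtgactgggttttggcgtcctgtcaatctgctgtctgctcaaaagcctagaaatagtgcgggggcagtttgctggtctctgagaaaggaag
Acly: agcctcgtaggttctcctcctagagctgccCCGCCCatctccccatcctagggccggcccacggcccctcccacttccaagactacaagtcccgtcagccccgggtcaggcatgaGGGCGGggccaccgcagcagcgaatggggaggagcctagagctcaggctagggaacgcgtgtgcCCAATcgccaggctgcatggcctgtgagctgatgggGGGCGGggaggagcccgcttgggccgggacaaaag
Acacb: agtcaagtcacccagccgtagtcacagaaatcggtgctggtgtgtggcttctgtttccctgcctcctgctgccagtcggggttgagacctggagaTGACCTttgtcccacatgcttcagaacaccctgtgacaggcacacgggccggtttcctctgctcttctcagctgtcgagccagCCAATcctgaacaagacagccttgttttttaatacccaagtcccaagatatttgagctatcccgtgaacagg

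The motifs were searched on both strands as CACGTG (the E-box), CACCCCAC (8 bases of a sterol regulatory element), CCAAT (the CCAAT box) and GGGCGG (the GC box). Also searched were TATAAA (the TATA box), AGGTCA (1 core unit of a nuclear receptor element, not a whole element) and TTGCGCAA (a C/EBP site). CCAAT, on either strand, was present in 5 of the 6 promoters (Thrsp, Acss2, Acly, Slc25a1 and Acacb) and in 34.0% of all 33469 promoters of that length. GGGCGG was also present in 5 of 6 (Thrsp, Acss2, Me1, Acly and Slc25a1), against 30.5% of all promoters. The Acacb promoter was the 1 without a GC box and the 1 with the nuclear receptor core unit, which 14.1% of promoters held. None of the 6 windows held the E-box, the sterol element, the TATA box or the C/EBP site, which occurred in 5.59%, 2.32%, 12.9% and 0.14% of all promoters. In Acly the CCAAT lay 71 bases before the start and in Acacb 72 bases before it, both on the strand of the gene, while in Thrsp it lay 121 bases before the start on the opposite strand. The GC content of the 6 windows ran from 53.6% (Acacb) to 83.2% (Me1), where the median promoter had 51.2%, and a GC box is more likely in a GC-rich window. These matches describe letters, not binding.

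All 7 genes had higher means in induced than in control cells, and in 6 of them every induced array lay above every control array, the exception being Acacb. Among all genes 12.0% had their groups apart in that direction. Thrsp and Me1, 2 of 7, passed the test over all genes (limma with Benjamini-Hochberg adjustment, adjusted p under 0.05), against 0.479% of all genes called higher. None of the 7 was called lower, as 0.27% of genes were. Of the 7, 6 had mean changes above 2-fold, a size that 2.81% of genes reached in that direction. The median log2 change was 2.06 over the 7 genes and -0.01 over all genes. Values are log2 signals from RMA, a method that corrects background, makes the arrays' distributions alike and summarises the probes of a feature, so 1 unit is a 2-fold difference. RMA gives no detection call and compresses dim signals. In a bulk culture, more adipocytes and more RNA of these genes per cell cannot be told apart.

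**Figure D1:**
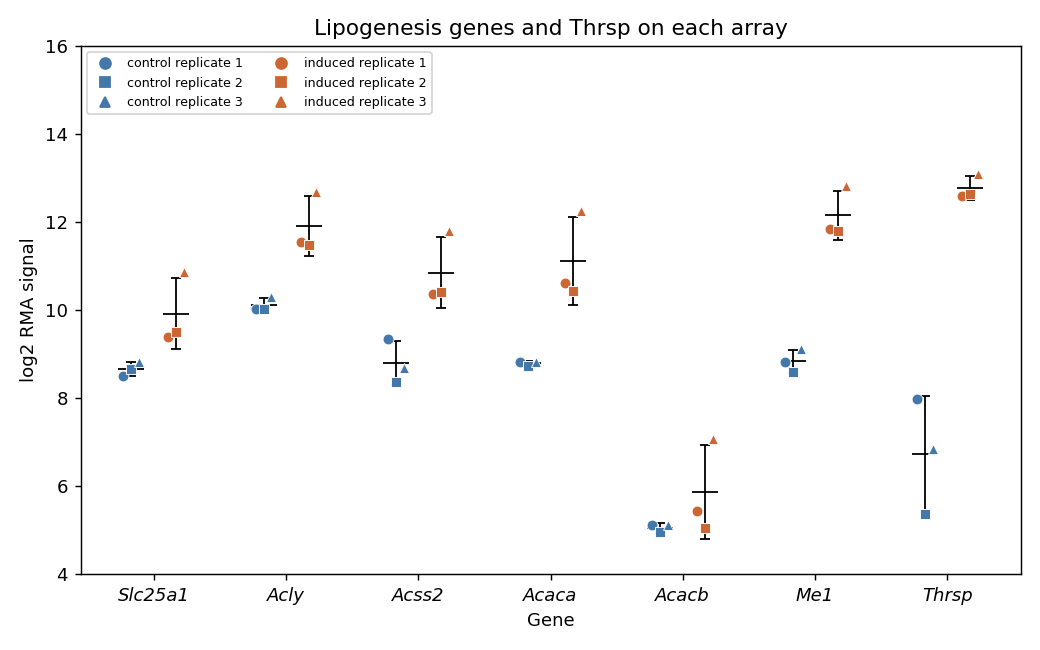
Log2 RMA signal (vertical axis) of the 7 genes (horizontal axis) on 3 control arrays (blue) and 3 induced arrays (orange), symbols marking the replicate number and black bars the mean ± SD. Induced replicate 3 is the highest array for every gene, and the groups overlap for Acacb alone.

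The genes of carbon supply had higher means in induced cells without passing the test over all genes. The citrate carrier Slc25a1 read 8.51, 8.66 and 8.81 in the control cultures (replicates 1, 2 and 3, the order used throughout) and 9.40, 9.50 and 10.86 in the induced cultures. The induced arrays all lay above the control arrays, by at least 0.59, and induced replicate 3 lay well above the other induced arrays. Its log2 change was 1.26 (SE 0.38, limma adjusted p = 0.176), a 2.40-fold difference. Acly read 10.03, 10.03 and 10.30 in control and 11.55, 11.48 and 12.69 in induced cells. The control arrays were close together and the nearest induced array stood 1.17 above them. Its log2 change was 1.78 (SE 0.33, limma adjusted p = 0.0762), from 10.12 ± 0.15 to 11.91 ± 0.68 (SD, n = 3 arrays each). Acss2, the acetate enzyme, read 9.34, 8.37 and 8.68 in control and 10.37, 10.40 and 11.79 in induced cells. Here the control arrays were spread, control replicate 1 being the highest, and the groups were still 1.03 apart. The log2 change was 2.06 (SE 0.44, limma adjusted p = 0.0963), from 8.80 ± 0.50 to 10.85 ± 0.81 (SD, n = 3).

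The acetyl-CoA carboxylases differed from each other in their readings. Acaca, the lipogenic form, read 8.82, 8.74 and 8.83 in control and 10.62, 10.44 and 12.26 in induced cells. Its control arrays were nearly equal, with an SD of 0.05 that was smaller than that of all but 7.81% of genes, and the groups were 1.60 apart. The log2 change was 2.31 (SE 0.46, 95% interval 1.21 to 3.41, limma adjusted p = 0.0866), a 4.95-fold difference that missed the threshold. Acacb read 5.12, 4.95 and 5.11 in control and 5.44, 5.06 and 7.08 in induced cells. Induced replicate 2 lay below control replicates 1 and 3, so the groups overlapped, and induced replicate 3 stood far above the other 5 arrays. Its log2 change was 0.80 (SE 0.49, 95% interval -0.38 to 1.98, limma adjusted p = 0.46). All control values of Acacb lay under the array medians (5.64 to 5.72 in control), in the dim range where RMA understates changes.

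Me1 rose in induced cells. It read 8.83, 8.59 and 9.11 in control and 11.85, 11.80 and 12.81 in induced cells. No array of one group came within 2.69 of the other group. The rise was 3.31 on the log2 scale (SE 0.29, 95% interval 2.61 to 4.02, limma adjusted p = 0.0144), or 9.93-fold, from 8.84 ± 0.26 to 12.15 ± 0.56 (SD, n = 3). It was the 48th largest increase of 18166 genes. Me1 no longer passed when control replicate 2 was left out (change 3.18, adjusted p = 0.0706). The same held for control replicate 3 (3.45, adjusted p = 0.0579) and induced replicate 1 (3.46, adjusted p = 0.0897).

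Thrsp rose most of the 7 genes and had the largest estimated increase of all 18166 genes. Its control arrays read 7.98, 5.36 and 6.85, and its induced arrays 12.59, 12.64 and 13.09. The control values were far apart and the induced values close together, with 4.60 between the highest control and the lowest induced array. The rise was 6.04 on the log2 scale (SE 0.61, 95% interval 4.59 to 7.50, limma adjusted p = 0.0186), or 66.0-fold. That interval also holds the estimates of the next genes in rank, Pnpla3 (5.36) and Agt (5.34). Control replicate 2, the lowest array, lay under its array's median (5.69), in the dim range. Without that array the change of Thrsp was 5.36 (limma adjusted p = 0.0286) and that of Agt 5.32. The spread ran opposite to that of the enzymes: the control SD of Thrsp, 1.32, was larger than that of 99.6% of genes, and its induced SD of 0.28 was the smallest of the 7. Thrsp no longer passed when control replicate 3 was left out (change 6.10, adjusted p = 0.0796), nor when induced replicate 1 (6.14, adjusted p = 0.103) or induced replicate 2 was (6.11, adjusted p = 0.0918).

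How many of these genes passed varied with the arrays used. Without induced replicate 3, 6 of 7 genes were called higher, all but Acacb, against 2.0% of all genes. The changes were smaller: 1.73 for Acaca (limma adjusted p = 0.00175), 1.39 for Acly (0.00554), 1.59 for Acss2 (0.0351) and 0.79 for Slc25a1 (0.0333). Me1 then stood at 2.99 (0.00116) and Thrsp at 5.88 (0.0096). Acacb stood at 0.19 (SE 0.15, adjusted p = 0.593). In this fit the induced group was 2 very similar arrays, with 24 genes over 2-fold apart, against 336 to 522 between control arrays. The SE of Acaca was 0.12 there and 0.46 on all arrays, so the added calls came with a smaller spread and smaller changes. Whether these 2 cultures were independent is not known. Without both induced replicate 3 and control replicate 1, the same 6 genes were called, against 3.36% of all genes. Without control replicate 1 alone, Thrsp and Me1 were called as on all arrays, against 0.374% of all genes. Leaving out any 1 of the other 4 arrays gave fewer calls, among the 7 genes and among all genes. None of the 7 was called without control replicate 3 (0.0716% of all genes) or without induced replicate 1 (0.011%). Thrsp alone was called without control replicate 2 (0.0606%) and Me1 alone without induced replicate 2 (0.127%). Without both replicate 3 arrays 6 were called (2.29% of all genes), with arrays weighted by their fit 5 (2.61%), and with the replicate number as a block 1 (0.0606%).

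**Figure D2:**
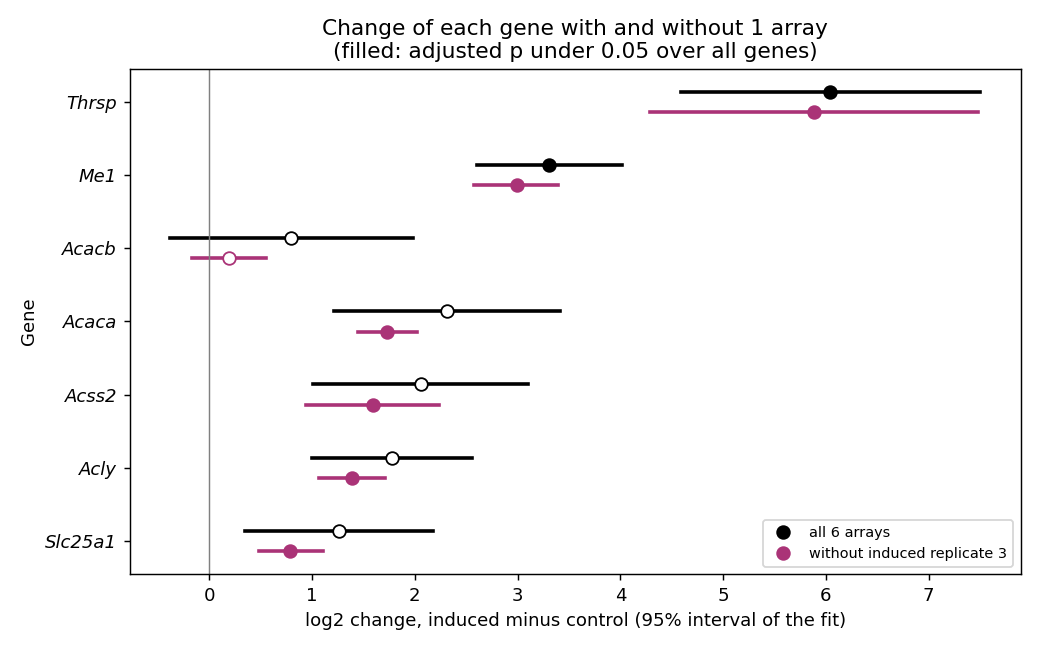
Log2 change, induced minus control (horizontal axis), of each gene with its 95% interval from limma, for all 6 arrays (black) and without induced replicate 3 (purple), filled where the adjusted p over all genes is under 0.05. Thrsp and Me1 are filled in both fits, and Acacb is open in both.

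The 7 genes shared the height of induced replicate 3 but not that of control replicate 1. On induced replicate 3 all 7 lay above the mean of induced replicates 1 and 2, by 0.48 (Thrsp) to 1.83 (Acacb) with a median of 1.40, where the median of all genes was -0.01. The carboxylases had the largest such gaps, 1.73 for Acaca and 1.83 for Acacb. RMA makes the arrays' distributions alike, so a median near -0.01 does not make this array typical. Among all genes, 1526 and 1566 were over 2-fold apart, in either direction, between it and induced replicates 1 and 2. Only 24 were that far apart between induced replicates 1 and 2. On control replicate 1, Thrsp lay 1.88 and Acss2 0.82 above the mean of the other control arrays. The other 5 genes lay between -0.22 (Slc25a1) and 0.09 (Acacb) there. Mature adipocyte markers, a list of 16 genes of which 15 were measured, were above the other arrays on both: by a median of 1.27 on control replicate 1 (15 of 15 markers) and of 1.02 on induced replicate 3 (14 of 15). Control replicate 1 was thus raised in adipocyte markers and in Thrsp and Acss2, with Acaca, Acly, Me1 and Slc25a1 level with the other control arrays. The part that the share of adipocytes has in these differences was not tested.

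**Figure D3:**
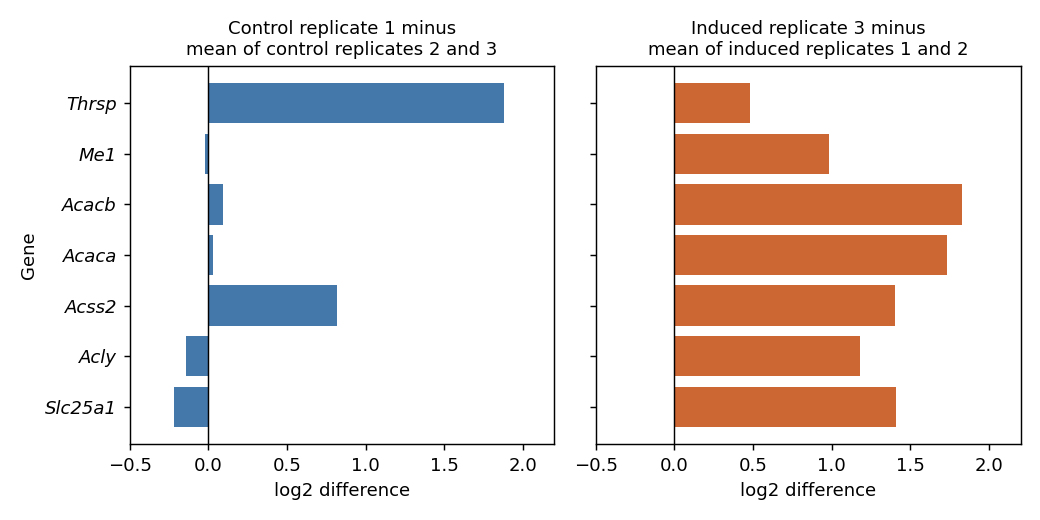
Log2 difference (horizontal axis) of control replicate 1 from the mean of the other control arrays (left, blue) and of induced replicate 3 from the mean of the other induced arrays (right, orange) for each gene. Thrsp and Acss2 stand out on the left at 1.88 and 0.82, and all 7 genes are above 0 on the right.

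Changes of related genes were compared within each array, as the difference of their log2 values, for 6 pairs. In all 6 the induced values of this difference lay above the control values. Each pair is written with the gene of the larger change first, so the shared direction was set by that order. The exact two-sided permutation p was 0.1 for each (adjusted over 6 pairs, 0.1). That is the smallest that 3 against 3 arrays can give, so that none could pass. Only the shift of a difference can be read, since its size also holds the probes' own brightness. Between the carboxylases, Acaca minus Acacb was 3.70, 3.79 and 3.72 in control and 5.18, 5.37 and 5.17 in induced cells. These values were tight in both groups, induced replicate 3 included, and the shift was 1.51 (SE 0.07). Acacb read 4.95 to 5.44 on all arrays but induced replicate 3, in the dim range where RMA understates changes. The shift can therefore be overstated. Thrsp was set against Mid1ip1, its paralog, whose protein binds and helps to polymerise acetyl-CoA carboxylase. Mid1ip1 read 7.95, 7.87 and 8.37 in control and 8.44, 8.61 and 9.12 in induced cells, a log2 change of 0.66 (SE 0.22, limma adjusted p = 0.206), and the change of Thrsp exceeded it by 5.38 (SE 0.74).

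The Me1 change exceeded that of Me2 and Me3, which encode mitochondrial malic enzymes, by 3.97 (SE 0.49) and 3.41 (SE 0.50). Me2 itself stood at -0.66 (limma adjusted p = 0.126) and Me3 at -0.09 (adjusted p = 0.851). Me3 read 4.60 to 5.28 on the 6 arrays, under the array medians and in the dim range where RMA understates changes. Acss1, the mitochondrial acetate enzyme, stood at 0.10 (adjusted p = 0.859). It read 5.47 to 6.09, near the array medians, so a small change can be understated there too. The change of Acss2 exceeded that of Acss1 by 1.95 (SE 0.78), their difference within arrays being 4.29, 4.31 and 6.32 in induced cells. Along the citrate route, the change of Acly exceeded that of Slc25a1 by 0.52 (SE 0.10). That difference was 1.52, 1.38 and 1.49 in control and 2.15, 1.97 and 1.83 in induced cells, so induced replicate 3 was here the lowest induced array.

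**Figure D4:**
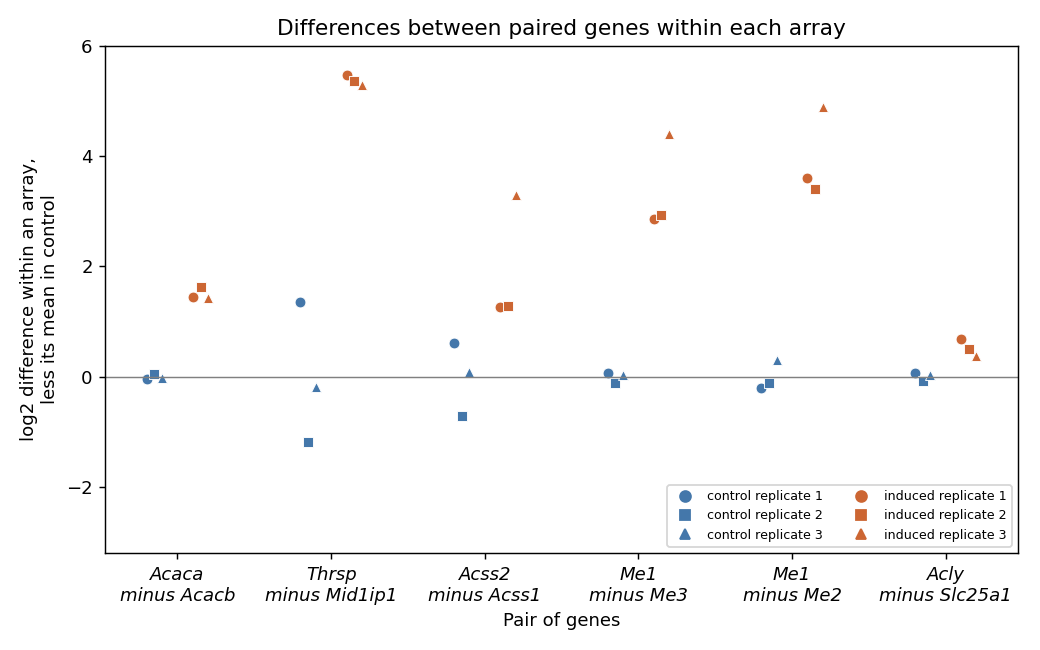
Difference of the log2 signals of paired genes within an array, less its mean in control (vertical axis), for 6 pairs (horizontal axis), control arrays in blue and induced arrays in orange. Induced values are above control values in each pair, and Acaca minus Acacb is tight on all 6 arrays.

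Other genes that feed the pathway had mostly positive estimates. Of 18 measured genes of citrate, acetyl-CoA and NADPH supply, 15 had positive estimates, and the median was 0.85. In this list 1 rose (0.479% of all genes did), 0 fell and 17 did not pass. The one that rose was Slc25a10, the mitochondrial dicarboxylate carrier, by 2.40 (SE 0.35, limma adjusted p = 0.0456). It no longer passed when any array other than induced replicate 3 was left out (changes 2.09 to 2.60, adjusted p 0.0751 to 0.171). Acss3, a mitochondrial short-chain acyl-CoA synthetase, stood at 2.55 (adjusted p = 0.0775) and the cytosolic malate dehydrogenase Mdh1 at 1.83 (adjusted p = 0.084). Without induced replicate 3 the median fell to 0.49, and 5 of the 18 rose, against 2.0% of all genes. These were Slc25a10, Mdh1, Aco1 (cytosolic aconitase), Pdhb and Dlat (subunits of pyruvate dehydrogenase), the last 3 being named after their values were seen.

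Biotin genes bear on the carboxylases, which carry biotin as their cofactor. Of 8 measured, 0 rose and 0 fell, where 0.479% of all genes rose and 0.27% fell. Positive estimates were found in 7 of the 8, and the median was 1.01. Pc, pyruvate carboxylase, which replenishes mitochondrial oxaloacetate, read 8.35, 7.03 and 6.65 in control and 10.56, 10.45 and 11.97 in induced cells. All induced arrays were higher, and control replicate 1 was the highest control array. Its log2 change of 3.65 (SE 0.56, limma adjusted p = 0.0507) missed the threshold. Mccc2, a subunit of methylcrotonyl-CoA carboxylase, stood at 1.69 (adjusted p = 0.161) and Slc5a6, the biotin and pantothenate transporter, at 1.58 (adjusted p = 0.133). Pc passed without control replicate 1 (4.15, adjusted p = 0.0463). Without induced replicate 3 the list median was 0.58, and 3 of 8 rose, against 2.0% of all genes. These were Pc by 3.16, Mccc2 by 1.09 and Pcca (a propionyl-CoA carboxylase subunit, named after its values were seen) by 0.74.

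Genes that control acetyl-CoA carboxylase or answer to its product had mixed signs. Of 15 measured, 0 passed, where 0.479% of all genes rose and 0.27% fell. In this list 9 estimates were positive and 6 negative, and the median was 0.19. Prkaa2, a catalytic subunit of AMPK, the kinase that inactivates the carboxylases, stood at 1.49 (limma adjusted p = 0.163), as did Cpt1b, the muscle-type carnitine palmitoyltransferase that malonyl-CoA inhibits, at 1.49 (adjusted p = 0.314). The induced arrays of Cpt1b read 7.75, 7.53 and 10.15. Mlycd, malonyl-CoA decarboxylase, stood at 1.11 (adjusted p = 0.244). Without induced replicate 3 the median was 0.01, and 1 of 15 rose, against 2.0% of all genes. It was the AMPK subunit Prkag2 (named after its values were seen), at 0.73.

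Downstream of malonyl-CoA, 12 genes of fatty acid chain building, desaturation and elongation were measured, with 11 positive estimates and a median of 0.48. Of these 0 fell and 1 rose, against 0.479% of all genes. That gene was Scd, stearoyl-CoA desaturase, at 9.23, 9.20 and 10.05 in control and 12.77, 12.62 and 13.24 in induced cells. It rose by 3.38 (SE 0.28, limma adjusted p = 0.0115), close to the change of Me1. It no longer passed without control replicate 2 (3.23, adjusted p = 0.0527) or induced replicate 1 (3.43, adjusted p = 0.0897). Hsd17b12 and Elovl5, which act in elongation, stood at 1.34 (adjusted p = 0.13) and 1.11 (adjusted p = 0.143). Both rose, with Scd, without induced replicate 3, where 2.0% of all genes did. In that fit the list median was 0.13 with 7 of 12 positive estimates, and Elovl6 (-0.37), Tecr (-0.28) and Fads1 (-0.09), named after their values were seen, had turned below 0. Fasn and Hacd2 are not analysed here.

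Among 17 measured regulators of lipogenic transcription, 0 passed, where 0.479% of all genes rose and 0.27% fell. In this list 9 estimates were positive and 8 negative, and the median was 0.01. Srebf1, which encodes the SREBP-1 factors that drive lipogenic genes, read 7.77, 7.30 and 8.40 in control and 9.45, 9.31 and 11.17 in induced cells. Its induced arrays all lay above its control arrays, replicate 3 being the highest in both groups. The log2 change was 2.15 (SE 0.54, limma adjusted p = 0.126). Nr1h3, the oxysterol receptor LXR-alpha, read 7.49, 7.09 and 7.64 in control and 8.97, 8.89 and 10.66 in induced cells, with a log2 change of 2.10 (SE 0.47, adjusted p = 0.106). Insig1, which retains SREBPs in the endoplasmic reticulum, stood at 1.06 (adjusted p = 0.164). Without induced replicate 3, 2 of 17 rose, against 2.0% of all genes: Nr1h3 by 1.52 (adjusted p = 0.0108) and Srebf1 by 1.55 (adjusted p = 0.0495). Mlxipl is not analysed here.

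Thrsp is named for its response to thyroid hormone, and 12 genes of thyroid hormone action were measured. None of the 12 passed on all arrays, where 0.479% of all genes were called higher and 0.27% lower. None passed without induced replicate 3 either, where 2.0% of all genes were called higher. With shares that low, 0 of 12 does not set these genes apart from others. The median was 0.09 with 9 positive estimates. Changes ran from -0.31 to 0.72. Klf9, a zinc finger factor that thyroid hormone and glucocorticoids both induce, stood at 0.72 (SE 0.29, limma adjusted p = 0.269). The receptor gene Thrb stood at 0.54 (adjusted p = 0.385) and the transporter gene Slc16a10 at 0.53 (adjusted p = 0.271).

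**Figure D5:**
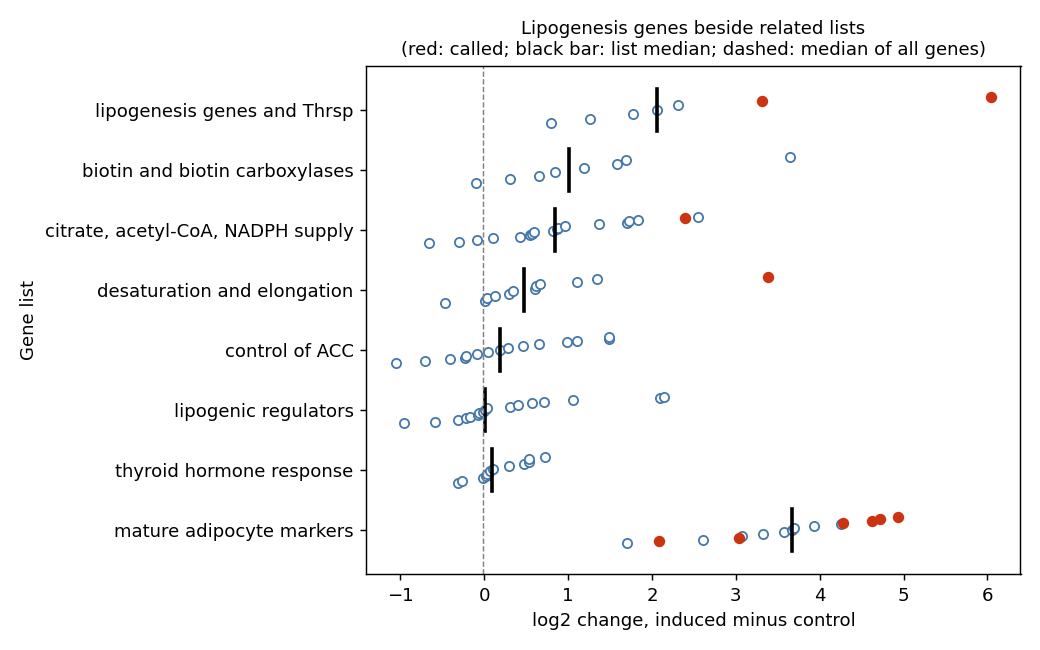
Log2 change, induced minus control (horizontal axis), of each measured gene in 8 lists (vertical axis), red where called at an adjusted p under 0.05 over all genes, with the list median as a black bar and the median of all genes dashed. The lipogenesis genes have a median of 2.06, between the lists of pathway neighbours and the mature adipocyte markers at 3.67.

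The genes most like Thrsp in their profile over the 6 arrays, outside the lists above, were Rbp4, Pnpla3, Akr1c15, Cidea and Agt, with root mean square differences from it of 0.82 to 0.97 on the log2 scale after each gene was centred on its mean. Rbp4 is the retinol carrier of plasma, Pnpla3 and Cidea encode lipid droplet proteins, and Agt encodes angiotensinogen. Akr1c15, an aldo-keto reductase, was the one of these 5 that shared the wide control spread of Thrsp: 7.71, 5.17 and 5.93 in control and 10.73, 10.62 and 10.55 in induced cells. The mean profile of the 7 genes was most closely matched by Adora1 (an adenosine receptor), Gpat3 (a glycerol phosphate acyltransferase), S100b, Slc27a1 (a fatty acid transporter) and Tst (thiosulfate sulfurtransferase), at 0.24 to 0.26. Gpat3 read 7.22, 7.00 and 6.80 in control and 8.99, 9.00 and 10.71 in induced cells. Of the 7 genes themselves, Acaca was nearest to their mean profile, at 0.23, and Thrsp farthest, at 1.88.

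The cell type labels were checked against markers. Over 11 measured stromal stem cell markers 0 passed, where 0.479% of all genes rose and 0.27% fell. In this list 3 estimates were positive and 8 negative, and the median was -0.55. The largest change was upward, in Mcam, a surface antigen of perivascular cells (2.42, limma adjusted p = 0.191). Next came Cd34 (-1.31, adjusted p = 0.269) and Nt5e (-1.10, adjusted p = 0.211). Thy1, a stromal surface antigen named after its values were seen, read 11.84 to 12.33 in control and 11.10 to 11.21 in induced cells (log2 change -0.97, limma adjusted p = 0.0507). Without induced replicate 3 the list median was 0.02, Thy1 fell and Mcam rose, where 2.0% of all genes rose. The list mean was 8.53, 8.33 and 8.36 in control and 8.26, 8.24 and 7.69 in induced cells, so induced replicate 3 alone was low. Mature adipocyte markers had positive estimates in 15 of 15 genes, where 8652 of all 18166 genes did, with a median of 3.67. Of the 15, 6 rose, against 0.479% of all genes. The count was 12 without induced replicate 3 (2.0% of all genes) and 10 without control replicate 1 (0.374%). None of the 15 passed without control replicate 2, control replicate 3 or induced replicate 1, nor with the replicate block, and 1, Lep, passed without induced replicate 2. The marker mean was 8.31, 6.92 and 6.75 in control and 10.56, 10.50 and 11.62 in induced cells. The mean of the 7 lipogenesis genes was 8.38, 7.81 and 8.24 in control and 10.26, 10.19 and 11.51 in induced cells.

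Other lipogenic cell types could lie near these cultures, since the inguinal fat of females holds mammary ducts. For the counts of this paragraph on all arrays, 0.479% of all genes rose and 0.27% fell. Of 11 mammary epithelial markers 0 passed, and the median was 0.02. The list mean lay between 4.56 and 4.63 in control and between 4.43 and 4.74 in induced cells. Epcam, Krt18, Csn2 and Lalba, all but Csn2 named after their values were seen, stayed under 4 on every array. The other measured markers of this list lay between 4.52 and 6.00. Hepatocyte markers (8 measured, 0 passed, median -0.06) had means of 5.11 to 5.17 in control and 5.11 to 5.72 in induced cells. Alb, which encodes albumin, was the exception on 1 array, at 11.27 on induced replicate 3 against 5.49 to 6.21 on the other 5 arrays. Macrophage markers (12 measured, 0 passed, median 0.59) had means of 6.66, 7.02 and 5.46 in control and 7.79, 7.36 and 5.79 in induced cells, lowest on replicate 3 of both groups. Without induced replicate 3 the median was 1.02, and 4 of the 12 rose, against 2.0% of all genes. These were C1qa, C1qb and C1qc (complement) and Cd163 (a scavenger receptor), named after their values were seen. On induced replicate 3 the lipogenesis genes were highest. The part of these markers in the differences above was not tested. Endothelial markers (8 measured, 0 passed) had means of 5.35 to 5.45 on all 6 arrays.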

How the data were processed

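Log2 expression values deposited by the authors were used as given. Per the submitters' processing notes they were made with RMA, and per the labels' protocols biotin-labelled cRNA from 6 µg of total RNA was used on Affymetrix arrays. The log2 scale was read from the values, and no source used here gives the genome build. Of 36685 features, 18511 had 1 gene symbol, 575 several and 17599 none. Where a symbol had several features the brightest on average was kept, leaving 18166 genes.

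The induced-minus-control change was fitted by limma 3.58.1 (lmFit, eBayes, two-sided; R 4.3.3), with p-values adjusted by Benjamini-Hochberg over all genes, and a gene was called at an adjusted p under 0.05. The fit was tested on simulated data. The 3 arrays of a group limit the precision, and arrays have no read depth. The members and lists were chosen with earlier results of these data known. Named genes are the 7 members, the 3 largest changes and up to 4 called genes of each list, Mid1ip1, Srebf1 and the 5 nearest profiles to Thrsp and to the members' mean. Me2, Me3 and Acss1 belong to the fixed pairs. The labels do not say that replicate numbers pair the cultures, so the main fit did not pair them. Correlation of deviations from the group mean was 0.023, 0.12 and 0.154 for arrays with replicate number 1, 2 and 3. With 3 arrays per group, these values cannot decide whether the cultures were paired. Alternatives were arrays left out, a block for replicate number, feature choice, a level filter, rescaling and other variance models. Changes of paired genes were compared by exact permutation.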

Additional observations from a re-analysis of the deposited data

How the results depend on the processing

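All 7 members kept a positive change under every alternative that gave them a value. Acacb fell below the level filter and has no value there. Over fits with 1 array left out, changes ran from 5.36 to 6.67 for Thrsp, 2.99 to 3.49 for Me1, 1.73 to 2.64 for Acaca, 1.59 to 2.33 for Acss2, 1.39 to 2.00 for Acly, 0.79 to 1.52 for Slc25a1 and 0.19 to 1.20 for Acacb. The members called ranged from 0 to 6, and the genes called from 2 to 557, against 136 on all arrays. Array weights called 929 genes and 5 members, adding Acaca (1.89), Acly (1.50) and Acss2 (1.84). Without both replicate 3 arrays 740 genes and 6 members were called, with Acaca at 1.75, Acly at 1.48, Acss2 at 1.53 and Slc25a1 at 0.87. Without control replicate 1 and induced replicate 3 together 978 genes and 6 members were called, with Acaca at 1.74, Acly at 1.35, Acss2 at 1.86 and Slc25a1 at 0.72. Over all features 69 were called, with the same 2 members. Fitted with the replicate block, 12 genes and 1 member (Me1) were called, Thrsp standing at 6.04 (limma adjusted p = 0.0653). Not every array correlated best with its own number, which does not decide whether the cultures were paired. Rescaling, the level filter, averaged features and the trended prior left the same 2 members called. The shift of each paired difference kept its sign throughout. Of 154 listed genes, estimates turned sign in 10 to 21 with 1 array left out, most without induced replicate 3, and none of these was called on all 6 arrays. With 1 array left out, Esam ran from -0.38 to 0.10, Krt14 from -0.25 to 0.05 and Lyz2 from -0.75 to 3.21. Without control replicate 1 and induced replicate 3 together, Esam stood at 0.20 and Prlr at -0.01. Apart from fits that hold fewer arrays or genes, the cause of these differences was not tested. The dim signal of Acacb limits what its change can show.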

Other observations

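The carnitine palmitoyltransferases, the step of fatty acid oxidation that malonyl-CoA inhibits, pointed apart. Cpt1a, the liver form, read 9.23, 8.97 and 7.92 in control and 8.01, 7.88 and 7.08 in induced cells, a log2 change of -1.05 (SE 0.40, limma adjusted p = 0.247). Its groups overlapped at control replicate 3, and replicate 3 was the lowest array of both groups. Cpt1b read 7.25, 7.02 and 6.69 in control and 7.75, 7.53 and 10.15 in induced cells, the groups being apart. Neither passed the test on all arrays, and the difference between them was not tested. Without induced replicate 3, Cpt1b stood at 0.65 (limma adjusted p = 0.133) and Cpt1a at -0.76 (limma adjusted p = 0.342). Without both replicate 3 arrays Cpt1a was called lower, as were 324 of 18166 genes. Both genes were picked here after their values were seen.

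Srebf2, the SREBP gene of cholesterol synthesis, stood at -0.58 (SE 0.16, limma adjusted p = 0.153), with 10.00, 9.93 and 10.11 in control and 9.67, 9.51 and 9.13 in induced cells. All 3 induced arrays lay below the control arrays, whereas for Srebf1 they lay above. It too was picked after its values were seen, and the difference between these genes was not tested.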
